A study of Mus musculus with 24 samples.

Results

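The proximal tubule endocytic receptor genes are Lrp2, Cubn, Amn, Dab2, Clcn5 and Ocrl, 6 of the 21951 protein-coding genes of the mouse. They were chosen by name, and their m6A peaks are the deposited peaks that overlapped one of their exons by at least 1 base on the same strand of the GRCm38 genome. Of 91013 peaks in the lists of 12 kidneys, 5 met that rule. They formed 3 of the 16815 loci that overlapping peaks were joined into. Dab2 held 3 peaks at 1 locus, Cubn and Ocrl held 1 peak each, and Lrp2, Amn and Clcn5 held 0 peaks in all 12 kidneys.

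MeRIP-seq enriches mRNA fragments with an antibody against N6-methyladenosine (m6A), so that methylated stretches appear as peaks of reads. Whole kidneys came from male C57BL/6 mice aged 8 weeks, with 4 mice in each of 3 groups. Control mice received saline daily for 14 days and a vehicle injection into the vein. Mice of the injury group (IG) received saline on the same days and then cisplatin at 20 mg/kg into the vein, a single dose that injures the tubules. Mice of the treatment group (TG) received berberine, a plant alkaloid, at 20 mg/kg per day for 14 days and then the same cisplatin dose. All kidneys were taken 72 h after the injection into the vein. The comparisons are IG against control (IvC), TG against IG (TvI) and TG against control (TvC).

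The early proximal tubule takes up proteins that pass the glomerular filter. Megalin, encoded by Lrp2, is a giant receptor of the LDL receptor family, and cubilin, encoded by Cubn, is a large receptor on the cell surface without a membrane span of its own. Amnionless, encoded by Amn, anchors cubilin in the membrane. Dab2 is an adaptor that binds the tail of megalin and links it to clathrin and the AP-2 complex. ClC-5, encoded by Clcn5, exchanges chloride for protons in endosomes, and OCRL removes a phosphate from phosphoinositides there. Loss of human ClC-5 causes Dent disease, and loss of OCRL causes Lowe syndrome, in both of which protein is lost into the urine.

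The m6A consensus is RRACH, with A or G for R and A, C or T for H. The sequences under the Dab2 and Ocrl peaks show where GGACT, a form of it, lies in them. The Dab2 peak (chr15:6429296-6429949, plus strand) held 4 copies of GGACT, the commonest form of the consensus in mammals, and each is shown in capitals with up to 12 bases on either side. Positions are counted from the 5′ end of the peak. For Ocrl the last 30 bases of the peak (chrX:47948331-47948360, plus strand) are shown, in which no GGACT occurs. Other forms of the consensus, AAACT and AGACC, do occur in them, and such forms were not counted.
Dab2, site at 371: agctctctaaccGGACTggcaaaccggaa
Dab2, site at 526: agccctcccaaaGGACTatcggtaccgaa
Dab2, site at 555: tggcgtaaagcaGGACTtggaaagttctg
Dab2, site at 644: gaagaggcagaaGGACTgctaag
Ocrl, last 30 bases: gaagttcctgtcaccaaactcatagacctg

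The adaptor Dab2 had a peak in 3 of 12 kidneys, the most of the 6 genes. The peak covered exactly exon 10 of 15 in the transcript with the longest coding sequence, an internal exon of 654 bases (218 codons) that is coding throughout. Each listed peak carries a score, −10 × log10 of the p that the peak caller gave it, so that a higher score means stronger evidence for enrichment. For Dab2 it was 46.94 in control 4, 14.22 in TG 1 and 14.98 in TG 2, and the other 9 kidneys had no listed peak there. These scores stand for caller p-values of 2.02e-05, 0.0378 and 0.0318, each within a single library. They lay below the medians of their own lists, which were 76.86, 66.955 and 68.7, and the 2 TG scores lay near the lowest scores listed, 13.02 and 13.03. In rank, the control 4 peak stood 6034th of 9579, the TG 1 peak 6391st of 6588 and the TG 2 peak 5956th of 6276.

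The exon under the Dab2 peak is alternatively spliced. Of 6 annotated protein-coding transcripts that reach both sides of it, 3 hold it and 3 skip it, and the longest coding sequences with and without it were 2298 and 1644 bases. The long form of Dab2 binds clathrin and AP-2 mainly through the part of the protein that the short form lacks. A peak on this exon can therefore be seen only in RNA that includes it, and the lists do not give the share of that RNA.

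Ocrl, the endosomal phosphatase gene, had a peak in control 1 alone. It lay at chrX:47948318-47948360, the last 43 bases of exon 18 of 24, an internal exon of 236 bases, and all of it was coding. Its score was 31.19, a caller p-value of 0.00076, against a list median of 72.745, and it ranked 6385th of 8712 peaks. GGACT occurred in 4.53% of the last 43 bases of 154793 internal coding exons and was absent from this window.

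Cubn, the cubilin gene, had a peak in TG 3 alone, at chr2:13491804-13491924 on the minus strand. Its score of 15.62, a caller p-value of 0.0274, ranked 5544th of the 5901 peaks of that kidney, whose median score was 66.55. The peak was 121 bases long and overlapped 10 bases of exon 1 as GENCODE gives it, all of them coding, and reached 111 bases beyond the annotated start of the gene. In RefSeq exon 1 begins further upstream, so the overlap was 73 bases and 48 bases remained outside. No other Cubn exon held a listed peak.

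**Figure D1:**
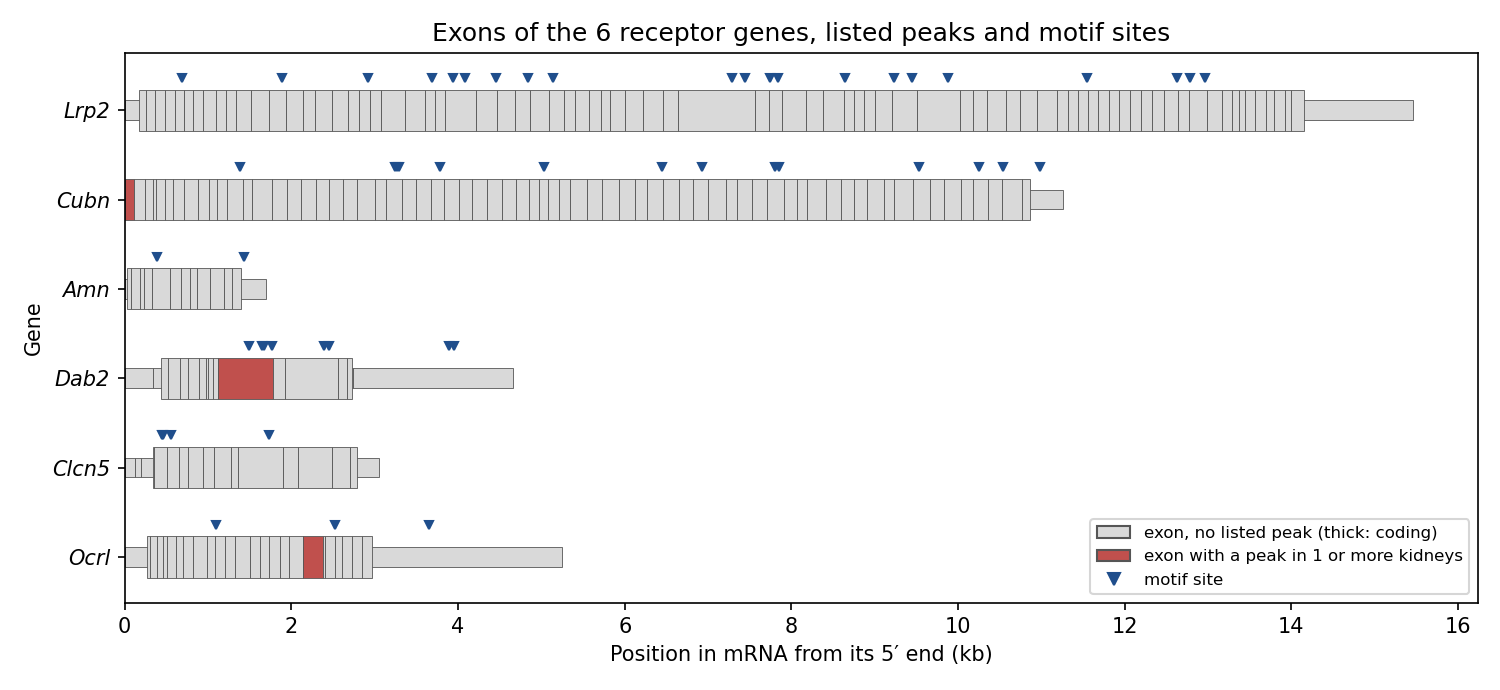
Exons of the 6 genes along the mRNA with the longest coding sequence, in kb from the 5′ end, with coding parts drawn thick, exons under a listed peak in red and GGACT sites as triangles. Red marks only Cubn exon 1, Dab2 exon 10 and Ocrl exon 18, while Lrp2 carries 21 GGACT sites and no listed peak.

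Megalin mRNA is longer than 99.7% of mRNAs of protein-coding genes, at 15460 bases and 79 exons, and no list held a peak in it. It contained 21 copies of GGACT, or 1.36 per kb, against a median of 1.02 per kb over all genes. Its longest internal exon, of 921 bases, held 2 of them, and another of 517 bases held 1. Cubn mRNA (11262 bases, 67 exons) contained 14 copies, or 1.24 per kb. Amn mRNA (1701 bases) contained 2 and Clcn5 mRNA (3052 bases) contained 4. Dab2 mRNA (4663 bases) had the highest density of the 6, 8 copies or 1.72 per kb, and Ocrl mRNA (5253 bases) the lowest, 3 copies or 0.571 per kb. The reverse complement AGTCC was counted on the same strand as a control. It occurred 11 times in Dab2 mRNA, 7 times in Lrp2, 13 times in Cubn, 5 times in Ocrl and 1 time each in Amn and Clcn5. Dab2 and Ocrl thus held more copies of it than of GGACT, and the other genes held fewer. A copy of GGACT is a description of the sequence and not a methylated site. Across all genes the median density was 1.04 per kb in genes with a listed peak and 1.00 per kb in genes without one.

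Exon length sets these values in context. Of 448 internal coding exons of at least 600 and under 700 bases, 42.0% had a peak in at least 1 kidney, 33.7% in at least 3 and 9.15% in all 12, and 53.6% held GGACT, the same share as held AGTCC. The Dab2 exon belongs to this class with its 3 kidneys, 4 copies of GGACT and 1 of AGTCC. The other Dab2 exon of this class, of 636 bases with 2 copies, had no listed peak. Neither had the Clcn5 exon of 543 bases with 1 copy nor the Lrp2 exons of 517 and 921 bases. So 1 of the 5 internal exons of 400 bases or more in these genes had a peak, against 41.2% of 3512 such exons in all genes. Of all internal coding exons of the 6 genes, 2 of 196 (1.02%) had a peak, against 5.88% of 159354. Most exons are short in both sets, with 155 of the 196 under 200 bases. Under 100 bases, 0 of 21 had a peak in the 6 genes, against 3.85% of 51782 in all genes. From 100 to under 200 bases it was 0 of 134, against 5.19% of 87216.

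Length of the mRNA also goes with the share of genes listed. A peak in at least 1 kidney was listed for 18.6% of genes with an mRNA under 2 kb, the class of Amn, and for 38.1% of those from 2 to 4 kb, the class of Clcn5. The share was 53.5% from 4 to 6 kb, where Dab2 and Ocrl fall, and 62.8% of 379 genes at 10 kb and over, where Lrp2 and Cubn fall. Among the 241 genes with an mRNA at least as long as that of Cubn, 145 (60.2%) had a listed peak and Lrp2 did not. Over all genes the share was 35.4%, and 3 of these 6 genes had one. A peak in all 12 kidneys was listed for 8.60% of all genes and for 0 of these 6.

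**Figure D2:**
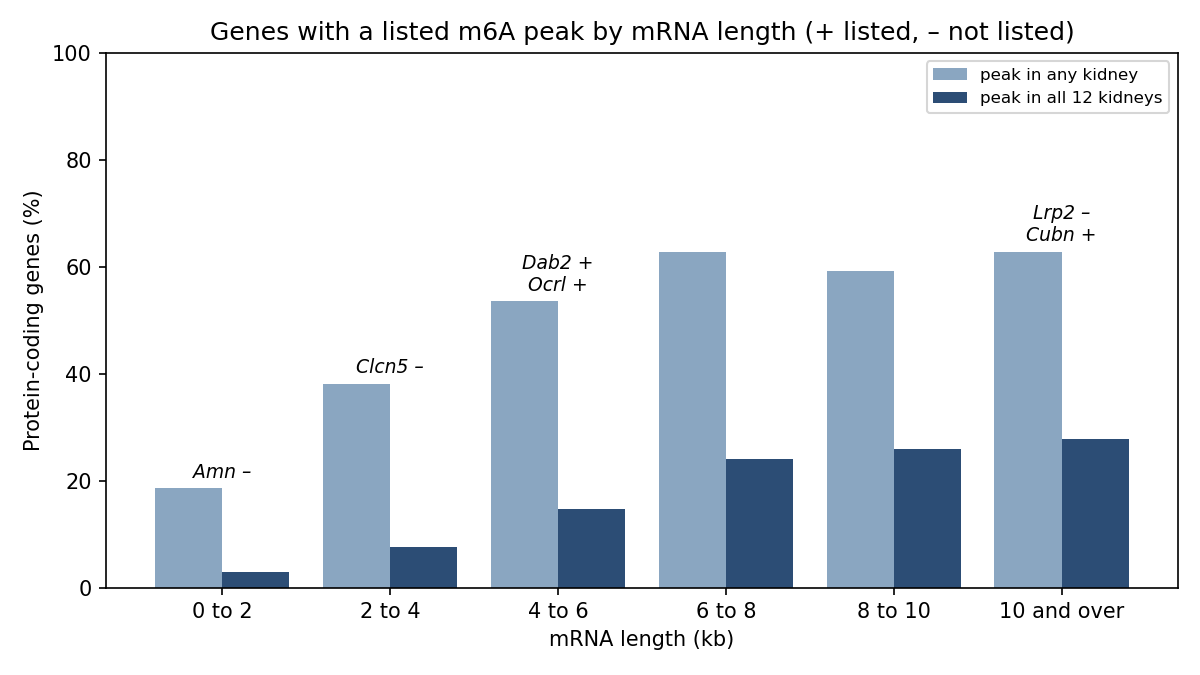
Percent of protein-coding genes with a listed peak in any kidney (light bars) and in all 12 kidneys (dark bars) by mRNA length in kb, with the 6 genes written above their class. Both shares are higher in long mRNAs, at 62.8% and 27.7% in the longest class, where Lrp2 had no listed peak and Cubn 1.

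The 3 loci of the 6 genes were listed in too few kidneys to be called as different between groups. At each locus the kidneys with and without a peak were compared by a two-sided Fisher's exact test, in which only 4 of 4 kidneys against 0 of 4 falls under 0.05, at p = 0.0286. In IvC 4.08% of 16072 loci met this, 217 gained and 438 lost. In TvI 0.666% of 13367 loci did, 29 gained and 60 lost, and in TvC 4.73% of 15169, 152 gained and 566 lost. After Benjamini-Hochberg adjustment 0 loci remained under 0.05 in any comparison, with lowest values of 0.701, 1 and 0.604. The members gave 0 such loci of 3. They could give none, since no member locus had a peak in more than 2 kidneys of a group.

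The Dab2 locus had a peak in 1 of 4 control, 0 of 4 IG and 2 of 4 TG kidneys, for which Fisher's exact test gave p = 1 for IvC, p = 0.429 for TvI and p = 1 for TvC. Control and TG kidneys therefore overlapped, and 2 TG kidneys were like all IG kidneys in having no peak. The Ocrl locus had 1 of 4 control kidneys and none of the IG or TG kidneys (exact p = 1 for IvC and TvC), and the Cubn locus had 1 of 4 TG kidneys and no other (exact p = 1 for TvI and TvC). The Ocrl call rests on control 1 and the Cubn call on TG 3, and without either of these kidneys 2 genes had a listed peak in place of 3.

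The number of loci with a peak per gene was compared by a two-sided exact permutation test over all 70 arrangements of 8 kidneys. By an unadjusted p under 0.05, 7.15% of 7526 genes were called in IvC, 1.14% of 6666 in TvI and 9.17% of 7242 in TvC. Of the 6 genes none was called, and with 1 locus at most, in no more than 2 kidneys of a group, none could have been. The mean difference of Dab2 in TvI was 0.5 loci (exact permutation p = 0.429, adjusted p = 1), and the other tested differences were 0.25 loci in size at p = 1. Lrp2, Amn and Clcn5 could not be tested. Scores were compared at the 2417 loci listed in all 12 kidneys, and none of these lay in a member. No locus of a member was listed in all 8 kidneys of any comparison either.

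**Figure D3:**
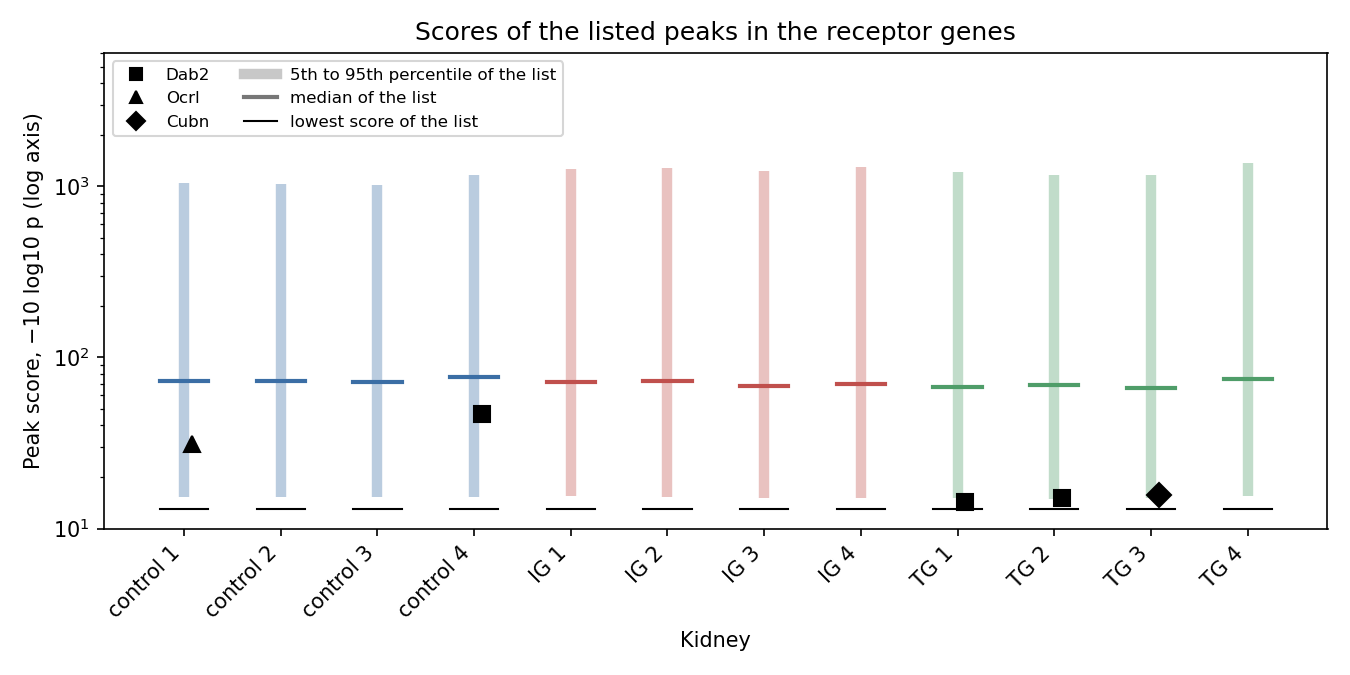
Scores of the 5 listed peaks (black symbols) by kidney on a log axis, beside the 5th to 95th percentile (bars), median (coloured lines) and lowest score (thin black lines) of each list. All 5 lie below the median of their list, and no IG kidney had a listed peak in the 6 genes.

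The 3 genes without a listed peak lie between genes that had one in every kidney. The nearest loci listed in all 12 kidneys were 221.6 kb (Spc25) and 155.4 kb (Ppig) from Lrp2, 293.5 kb (Ankrd9) and 36.9 kb (Cdc42bpb) from Amn, and 529.4 kb (Shroom4) and 575.2 kb (Pqbp1) from Clcn5. Their lowest scores in any kidney were between 18.92 and 247.54. The lists thus held peaks on either side of these genes on chromosomes 2, 12 and X. Peaks in other transcripts do not show whether RNA of the 3 genes was sampled enough for a peak to be called.

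The peak caller numbers its peaks along the genome, and the lists, which contain peaks on mRNA exons, skip numbers. The numbers skipped between the nearest listed peaks on either side of a gene give an upper limit to the called peaks near it that were left out of a list. Around Lrp2 between 1 and 5 numbers were skipped, with a median of 3.5 over the 12 kidneys, around Cubn between 4 and 12 (median 6.5) and around Ocrl between 3 and 15 (median 8). Around Dab2 between 0 and 10 were skipped (median 3.5). Around Amn no number was skipped in 10 of 12 kidneys and around Clcn5 in 7 of 12, so no unlisted peak was called there in those kidneys. Where numbers were skipped, the lists do not tell whether the peak lay in the gene, since the intervals also cover the neighbourhood. In control 1 they spanned 50.6 kb around Amn, 538.8 kb around Lrp2, 748.8 kb around Clcn5, 1344.6 kb around Dab2, 1614.2 kb around Cubn and 6003.3 kb around Ocrl. The counts can therefore not be compared between genes. Around Cubn the control kidneys had 9 to 11 skipped numbers, the IG kidneys 6 or 7 and the TG kidneys 4 to 12. The flanking peaks differ between lists, and these intervals spanned 1547 to 1614 kb, 342 to 488 kb and 352 to 1070 kb. For Ocrl the counts in the same order of groups were 3 to 9, 7 to 10 and 6 to 15. For Dab2 they were 3 to 10, 2 to 6 and 0 to 4. None of these counts was tested. The highest MACS number in a list was 20664 to 22326 in control, 22165 to 28164 in IG and 18477 to 19747 in TG kidneys.

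**Figure D4:**
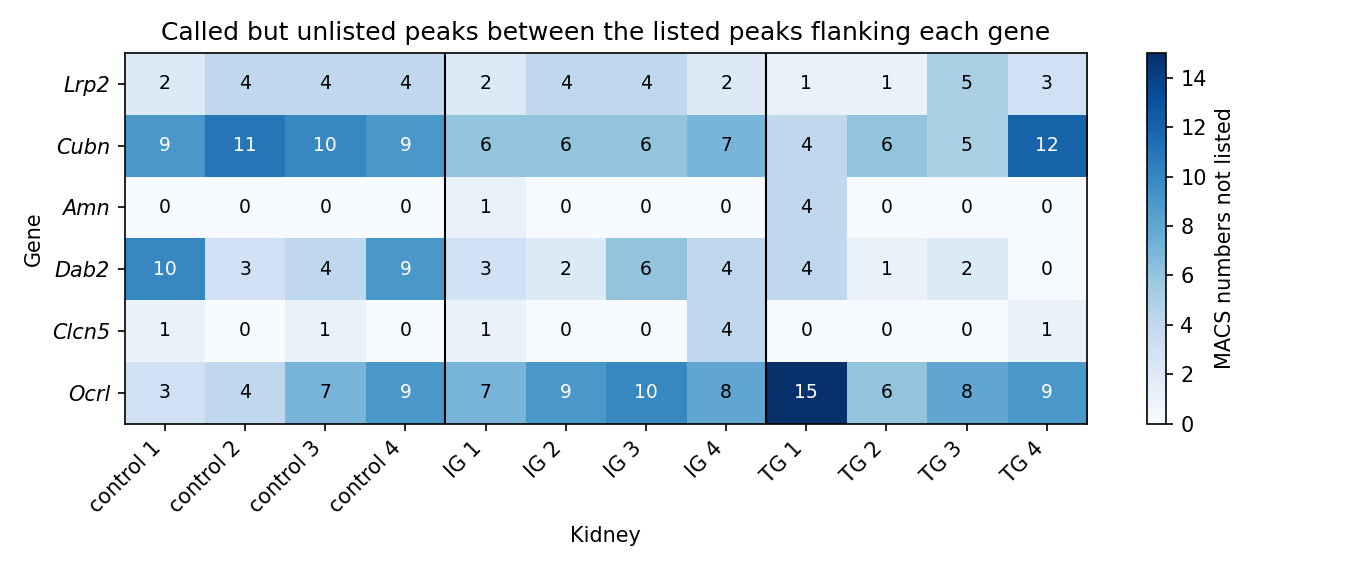
Number of called but unlisted peaks between the listed peaks on either side of each gene (rows) in each kidney (columns), with darker blue for more. Amn and Clcn5 are at 0 in 10 and 7 kidneys, and Ocrl reaches 15 in TG 1, over an interval of 6468.2 kb. The intervals differ in width between genes and kidneys.

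The lists were longest in control kidneys, with 8531 to 9579 peaks, against 6745 to 8357 in IG and 5901 to 6753 in TG kidneys. Median scores were close, from 66.55 to 76.86, and the lowest were 13.02 to 13.04, near 13.01, the score of a caller p-value of 0.05. When every list was shortened to its 5901 highest scores, the Cubn peak in TG 3 was the only one of the 5 left, because the list of TG 3 is the shortest. None of the 5 reached the median score of all lists, 71.3.

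Other markers of the proximal tubule were also rarely listed. Of 10 markers, which include Lrp2 and Cubn, 8 had no listed peak in any kidney: besides Lrp2, the phosphate carrier Slc34a1, the glucose and monocarboxylate carriers Slc5a2 and Slc5a12, the organic anion carrier Slc22a8, the dicarboxylate carrier Slc13a3, the fatty acid enzyme Slc27a2 and the water channel Aqp1. Cubn and Slc22a6 were each listed in 1 TG kidney. Of 5 thick limb and distal tubule markers only Slc12a1 was listed, in 1 control, 4 IG and 0 TG kidneys. Its mean number of loci was 0.5, 2 and 0 in these groups (exact permutation p = 0.0286 in TvI, adjusted p = 1, and p = 0.2 in IvC). Markers of the collecting duct were listed for 2 of 5, of podocytes for 4 of 5, of endothelium for 4 of 5 and of immune cells for 2 of 6. The endothelial marker Pecam1 was the only marker with a locus in all 12 kidneys, with scores of 585 ± 83.3 (SD, n = 4) in control, 279 ± 84.3 in IG and 209 ± 243 in TG kidneys, where TG 4 stood at 570.46. It was lower in TvC (log2 difference -1.72 ± 0.57, limma adjusted p = 0.0413), a call lost without any of the 4 control kidneys, IG 1 or TG 1 to 3 (adjusted p up to 0.120), and -0.95 ± 0.57 in IvC (limma adjusted p = 0.271). What part this has in the other results was not tested. The immune marker Itgam was at 0 of 4 control kidneys and at 4 of 4 IG and 4 of 4 TG kidneys, whereas Ptprc was listed in 1 control kidney and Cd68, Lyz2, Cd3e and Csf1r in none. The defining markers of the proximal tubule were thus absent from nearly all lists, and the label of the tissue could not be checked on them. A listed peak needs both RNA and m6A, expression was not analysed here, and in whole kidney fewer cells of a type and less RNA per cell cannot be told apart.

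Genes that work with the receptors along the endocytic route were taken as 5 lists of 101 other genes, of which 51 (50.5%) had a peak in at least 1 kidney and 20 in all 12. These were 9 of 13 genes of the LDL receptor family and its chaperones, 17 of 24 of the clathrin coat and its adaptors, 16 of 29 of early and recycling endosomes, 6 of 24 of endosomal acidification and 3 of 11 of lysosomes and vitamin D handling. Of megalin's relatives, Lrp5, Lrp6 and Lrp12 were listed in all 12 kidneys, as was Mesd, a chaperone that folds the family, and Lrp4 in 1 control, 4 IG and 4 TG kidneys. Lrpap1, the chaperone of megalin, was listed in 2 kidneys and Lrp1 in none.

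**Figure D5:**
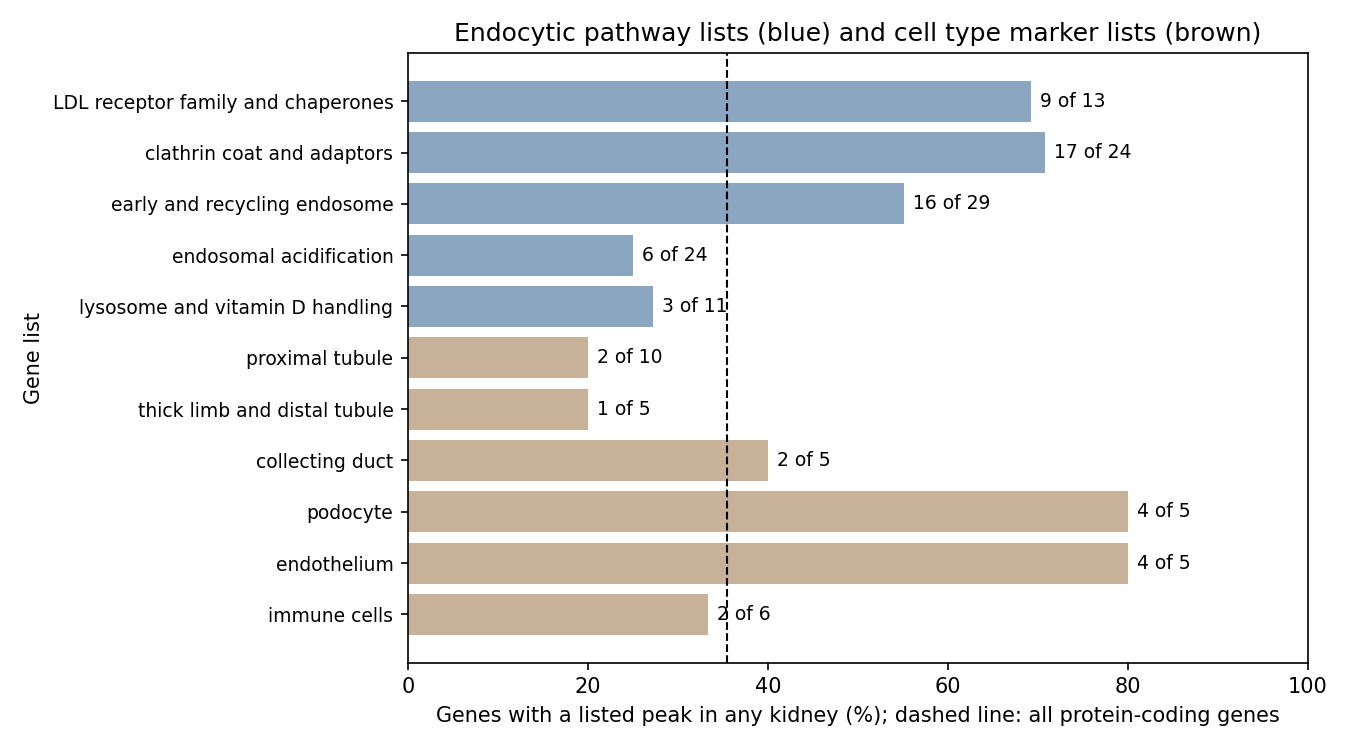
Percent of genes with a listed peak in any kidney for 5 lists of the endocytic pathway (blue) and 6 lists of cell type markers (brown), with counts beside the bars and the share over all protein-coding genes, 35.4%, as a dashed line. Proximal tubule markers, which include Lrp2 and Cubn, stand at 2 of 10, and the LDL receptor family at 9 of 13.

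By number of loci, 2 of 50 tested pathway genes were called higher and 8 lower in IvC, 0 of 42 in TvI, and 1 higher and 9 lower of 50 in TvC (exact permutation, unadjusted p = 0.0286 each, adjusted p = 0.400 in IvC and 0.312 in TvC). These are 20%, 0% and 20% of the tested pathway genes, beside 7.15%, 1.14% and 9.17% over all genes. With lists of equal length 3 of 41 pathway genes were called in IvC (2 higher, 1 lower) and 3 of 41 in TvC (1 higher, 2 lower). These shares, 7.32% in both, were close to the 6.01% of 6171 and 6.32% of 6156 genes called in all at equal length. Only Atp6v1b1 in IvC and Atp6v1b1, Picalm and Synj1 in TvC were called both ways. The other 2 called in IvC at equal length, named after their values were seen, were Lrp5, with 2 loci fewer in IG, and Synj2, with 1 more.

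Atp6v1b1, a subunit of the proton pump that acidifies endosomes, is found mainly in intercalated cells of the collecting duct. Its mean number of loci was 0 in control, 1.5 in IG and 1 in TG kidneys. At chr6:83758330-83758810 it had no control peak, scores of 482.61, 1047.68, 1999.43 and 478.19 in IG kidneys 1 to 4, and 1058, 485.35, 420.11 and 52.64 in TG kidneys 1 to 4. Picalm, a clathrin assembly protein, had a mean of 1.25 loci in control, 0.5 in IG and 0 in TG kidneys, and Synj1, which removes phosphates from phosphoinositides as coats are shed, 2.5, 0.25 and 0, although its call in IvC was lost at equal length (exact permutation p = 0.0857).

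The other pathway genes were called in full lists but not at equal list length, where most differences kept their direction at a smaller size and none had an exact permutation p under 0.05. In this design a difference of 1 kidney can end a call, and the part of list length in these differences was not tested. Ctns, the cystine carrier whose loss causes cystinosis, and the endosomal ATPase gene Ehd4 had 1 locus in each control kidney and 0 in IG and TG kidneys, and 0.75 loci fewer than control in both groups at equal length (exact permutation p = 0.143). Lamp1, of the lysosomal membrane, showed the same pattern in full lists and 0.5 loci fewer at equal length (exact permutation p = 0.429). Epn2 fell from 1 to 0 and Atp6v1d from 2 to 1 in IvC, with 0.75 and 0.5 loci fewer at equal length. In TvC Clta fell from 3 to 1.5 and Rab11fip1 from 2.5 to 0.5, with 0.75 and 0.5 loci fewer at equal length. Appl1 rose from 3 to 4 in IvC and had a difference of 0 at equal length. Eea1, the tether of early endosomes, had 12.5 loci in control, 9 in IG and 9.5 in TG kidneys, and 2.25 loci fewer than control in IvC (exact permutation p = 0.2) and 1 fewer in TvC (p = 0.629) at equal length.

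By presence at single loci, 3 of 137 pathway loci were gained and 7 lost in IvC (7.30%), 1 of 121 was lost in TvI (0.826%), and 1 of 131 was gained and 7 lost in TvC (6.11%). Over all loci the shares were 4.08%, 0.666% and 4.73%, so that the TvI share was near that of all loci. The single locus lost in TvI lay in Lrp6 (chr6:134541652-134542045), with scores of 22.1, 77.65, 143.92 and 38.96 in IG kidneys 1 to 4 and no peak in any control or TG kidney. It was thus also gained in IvC (Fisher's exact p = 0.0286, adjusted p = 0.701, and 1 in TvI).

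Scores at loci listed in all 12 kidneys were compared with limma after centring on the median of each kidney. At an adjusted p under 0.05 it called 19.7% of 2417 loci in IvC, 0.248% in TvI and 20.5% in TvC. Of 38 such loci in 20 pathway genes, 3 were higher and 3 lower in IvC, 0 changed in TvI, and 8 were higher and 2 lower in TvC. Both Myo6 loci counted as higher in TvC scored 3100 in every kidney, a value that stood in all 12 kidneys at 22 of the 2417 loci, so that their log2 difference of 0.40 came from the centring alone.

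Rab11fip3, of recycling endosomes, showed the lowest adjusted p among these loci. Its scores were 1705.51, 2818.5, 1617.52 and 2631.14 in control kidneys 1 to 4, 455.71, 598.65, 482.36 and 300.67 in IG kidneys and 236.06, 441.13, 150.42 and 122.24 in TG kidneys. The groups did not overlap between control and the other two, with log2 differences of -2.10 ± 0.40 (SE, n = 4) in IvC and -2.94 ± 0.40 in TvC (limma adjusted p = 0.00225 and 0.000163). Both were called in all 15 alternatives run for single loci (no centring, quantile normalization, the recurring score left out, and each of 12 kidneys left out), with adjusted p up to 0.0104 and 0.00106. Itsn1, a scaffold of coated pits, was higher at 1 locus in IvC, by 1.91 ± 0.41 on the log2 scale (limma adjusted p = 0.00412), and the same locus was higher in TvC, by 1.84 ± 0.41, in all 15 alternatives too. Its relative Itsn2 was higher at 2 loci in IvC in all 15 alternatives, by 1.34 ± 0.34 and 1.23 ± 0.28, and 1 of them was so in TvC.

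The remaining scores were called only under some of these alternatives, and the loci with a score of 3100 in any kidney had 14 of them. Such scores stood in control 3 at the first Atp6v1e1 locus, in IG 1 and TG 4 at the Cltb locus and in IG 3 at 1 Itsn2 locus, and if 3100 is a ceiling the differences there are not exact. Among the remaining scores were 1 more Itsn1 locus and 2 more Itsn2 loci in TvC. They lost the call on leaving out single kidneys or with another scaling (8 of 15, 6 of 14 and 5 of 15 alternatives called). Cltb, a clathrin light chain, was higher at 1 locus in TvC (0.99 ± 0.26, limma adjusted p = 0.0138), but not without centring (adjusted p = 0.212) or with quantile normalization (adjusted p = 0.142). In Lrp6 another locus was lower in TvC (-2.37 ± 0.79, limma adjusted p = 0.0447), and adjusted p reached 0.130 without TG 1 and passed 0.05 also without any of the 4 control kidneys or TG 3. The call was also lost with quantile normalization (adjusted p = 0.0687) and without the loci at the recurring score. Both loci of the pump subunit Atp6v1e1 were lower in IvC (-1.48 ± 0.47 and -0.85 ± 0.26, limma adjusted p = 0.0366 and 0.0302). The first call was lost without any of control 1 to 3 or IG 1 to 3 and the other without control 1, control 3, IG 1 or IG 2, with adjusted p up to 0.105 and 0.0820. A score depends on depth and the amount of RNA as well as on m6A, so these are differences in the evidence for a peak.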

How the data were processed

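MeRIP-seq of 12 mouse kidneys was grouped by the sample labels, with 4 mice per group. The authors trimmed reads with Cutadapt (1.9.3), mapped them to mm10 (GRCm38) with Hisat2 (2.0.4) and ran MACS on each kidney. The lists contain peaks that lie on mRNA exons. The version, threshold and control library of MACS are not given in the sources used here. The authors deposited a score for each peak, −10 × log10 of its caller p. Read counts are absent, so depth is unknown and 4 kidneys per group limit the precision. RNA-seq and the 12 input libraries were left out.

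Overlapping peaks (1 bp or more, same strand) made a locus and were assigned to the exons of 21951 protein-coding genes of GENCODE M21 on GRCm38, each gene being described by the transcript with the longest CDS. Sequences were read from the GENCODE M21 transcripts of GRCm38, and GGACT was counted on the sense strand of the mRNA. The reverse complement, AGTCC, had a median of 0.856 per kb over all genes. Presence was compared by a two-sided Fisher's exact test, loci per gene by an exact permutation test, and log2 scores with limma (3.58.1, R 4.3.3), which fitted all 12 kidneys. Benjamini-Hochberg adjustment ran over all loci or genes tested, and, since no adjusted value passed for presence or loci per gene, calls there are by the unadjusted p. The steps were run on simulated data with planted differences, as a check that they ran as written. The planted presence differences met the calling rule by construction, and the simulated scores had normal noise of a common spread. These runs do not show how accurate the calls are on the kidneys. Other computations used Python 3.11.15 with numpy 2.4.6, pandas 2.3.3, scipy 1.17.1 and matplotlib 3.10.9. Kidneys with the same replicate number did not deviate together (correlations from -0.029 to 0.11 over 12 pairs, with 1 over 0.1), so the number was not used to pair them.

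The 6 genes and the lists were chosen with earlier results of these data known. All 6 genes are named with every locus, and of the 137 entries in the pathway and marker lists those called by any test, together with the marker and family members named as absent or present. The values of 1 called gene are not reported here. Genes of a like pattern were to be named for a member with at least 10 loci, which none had. Alternatives were equal list lengths, scores at or above the median, other rules for joining peaks, other scalings and the omission of each kidney. RefSeq exons, the whole gene body on either strand, the loci without the recurring score, and the alternatives for the 6 genes and for the pathway genes were chosen after seeing the data.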

Additional observations from a re-analysis of the deposited data

Results flagged for a closer look

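A sample was picked out where its gap to the nearest of the other kidneys of its group was large for the range of that group by Dixon's test. Chance gives about 1 in 20 groups for measured values without ties, a rate that does not hold here, because in every case below the other 3 kidneys were tied and any single different value is then picked out by construction. The values are given as a description. Of the peaks, 3 were the only one of their gene in a group: Dab2 in control 4 with a score of 46.94, Ocrl in control 1 with 31.19 and Cubn in TG 3 with 15.62. Among the numbers of called but unlisted peaks around the genes, control 1 had 2 at Lrp2 against 4 in the other control kidneys, and IG 4 had 7 at Cubn against 6. At Amn, IG 1 had 1 and TG 1 had 4 where the other kidneys of their groups had 0, and at Clcn5 TG 4 had 1 against 0. All but the Amn value of TG 1 were differences of 1 or 2 numbers.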

How the results depend on the processing

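The 6 genes kept the same 3 with a listed peak under RefSeq exons or the whole gene body, but 1 remained with lists of equal length and 0 with scores at or above the median, and leaving out single kidneys gave 2 to 3. Pathway genes called by number of loci came to 3, 0 and 3 with equal lengths (IvC, TvI and TvC, against 10, 0 and 10), 2, 0 and 4 with scores at or above the median, and 18, 3 and 20 per 10000 listed peaks, where any peak present in all lists differs with the list length by construction. Leaving out single kidneys gave 10 to 12, 0 to 2 and 10 to 13.

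Called loci by presence were 655, 89 and 718. They became 346, 51 and 386 with scores at or above the median and 2053, 600 and 2242 when groups had to differ by only 3 of 4 kidneys, and in TvC 446 with equal lengths. Genes called by number of loci were 538, 76 and 664, and became 293, 42 and 360 at or above the median and 1603, 256 and 1495 per 10000 listed peaks, and 389 in TvC with equal lengths. Leaving out single kidneys gave 792 to 854, 136 to 175 and 852 to 960 loci, and 596 to 649, 109 to 148 and 694 to 788 genes, since fewer kidneys then had to be of 1 kind. Every one of the 8 kidneys moved the count of TvI loci by over 1.5 times.

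The limma counts were 476, 6 and 495 loci. In TvI, 2 were called without centring and 0 with the loci of the 8 kidneys compared. With a replicate block they were 455, 0 and 426, and the numbers did not pair the kidneys. Leaving out single kidneys gave 369 to 497, 0 to 5 and 320 to 506, the lowest of the last without control 4. Without the 177 loci that scored 3100 in any kidney they were 408, 4 and 354. The 22 loci at 3100 in all 12 kidneys were all called in TvC. No other alternative moved a count by over 1.5 times. Without read counts a peak under the threshold cannot be told from one without RNA.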
